A study of Mus musculus with 18 samples.

Results

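The lysosome genes are 40 genes for the enzymes, membrane proteins and regulators of the lysosome, listed by symbol, and all 40 were found among the 23337 genes of the deposited count table. All 40 passed the filter on low counts and are among the 14892 genes tested. They were followed while embryonic stem cells of the mouse formed cardiomyocytes in culture. All cells were 1 line, GLI1-FTA, on the A2Lox.cre background, in which doxycycline induces GLI1, the transcription factor that carries Hedgehog signals to the nucleus. The controls were untreated cells, with 4 libraries from day 5 (D5), 3 from D6 and 2 each from D8 and D12. Pulsed cells (GLI1 OE, for overexpression) had 500 ng/ml doxycycline during the 24 hours between D5 and D6, were washed, and gave 3 libraries at D6, 2 at D8 and 2 at D12. No group had the drug without the inducible gene, so an effect of the drug and an effect of GLI1 cannot be told apart. No label tells whether the replicates are separate cultures. The p-values therefore measure the spread between these libraries, which may be technical.

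Lysosomes are acidic organelles that break down proteins, sugar chains, glycosaminoglycans and lipids delivered by endocytosis and autophagy. Most of their hydrolases travel from the Golgi on mannose-6-phosphate receptors, and a proton pump in the membrane keeps the lumen acidic. Many lysosomal genes are targets of TFEB, TFE3 and MITF, related transcription factors that bind a palindromic sequence with the core CACGTG and that the kinase complex mTORC1 holds in the cytoplasm in fed cells. Heart muscle depends on the system: loss of the glycogen-degrading enzyme encoded by Gaa causes Pompe disease, and loss of the membrane protein encoded by Lamp2 causes Danon disease, both with cardiomyopathy.

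Total counts per library ranged from 18470785 to 26184339. The D5 libraries had at least 24842624, and no library of a later day had more than 22608134. Their columns are also named differently from those of later days. Whether the D5 libraries were made or sequenced apart is not stated. Such a difference and a change from D5 to a later day cannot be told apart. Gli1 was at 785 to 1051 CPM (counts scaled to the size of the library) in the D6 GLI1 OE libraries, 6.84 to 21.4 CPM in D6 controls and at most 1.45 CPM in every library of D8 and D12. All 12 cardiomyocyte marker genes averaged over 1 CPM in each group. Their summed level varied widely between libraries of a group, from 1543 to 14880 CPM in the D8 GLI1 OE pair and from 5533 to 13440 CPM in the D12 controls. D5 libraries 1 and 2 were close to each other, with a chi-square of the counts per gene of 7.17. It was 71.2 to 99.2 between either of them and library 3 or 4. Libraries 3 and 4 also differed from each other, at 53.5. Libraries 1 and 2 may therefore not be independent replicates. Counts over all 40 genes for D5 to D6 and D5 to D12 are also given without libraries 1 and 2, and without 3 and 4. This choice was made after the data were seen.

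In untreated cells most of the lysosome genes rose as differentiation went on, and their summed level was higher at D8 and higher again at D12. The 40 genes summed to 3157 to 4443 CPM in the D5 libraries, 3743 to 3843 at D6, 5824 and 5889 at D8, and 11090 and 11240 at D12. Every D8 library lay above every D5 and D6 control library, and both D12 libraries lay above the D8 libraries. Between D5 and D12, 31 of the 40 genes rose and 1 fell in edgeR's quasi-likelihood test (adjusted p under 0.05), against 32.2% of all genes tested higher and 34.3% lower. The median log2 fold change was 1.71 for the 40 genes and -0.04 for all genes tested. Without D5 libraries 1 and 2, 32 genes rose and 1 fell (median 1.92), and without libraries 3 and 4, 32 rose and 5 fell (median 1.44). Every fit without libraries 3 and 4 rests at D5 on libraries 1 and 2 alone. Their spread may be too small, as they may not be independent replicates. In bulk RNA, more cells of a type and more RNA per cell cannot be told apart. Of the group means of the controls, the highest was that of D12 for 33 genes, of D8 for 4 and of D5 for 3.

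**Figure D1:**
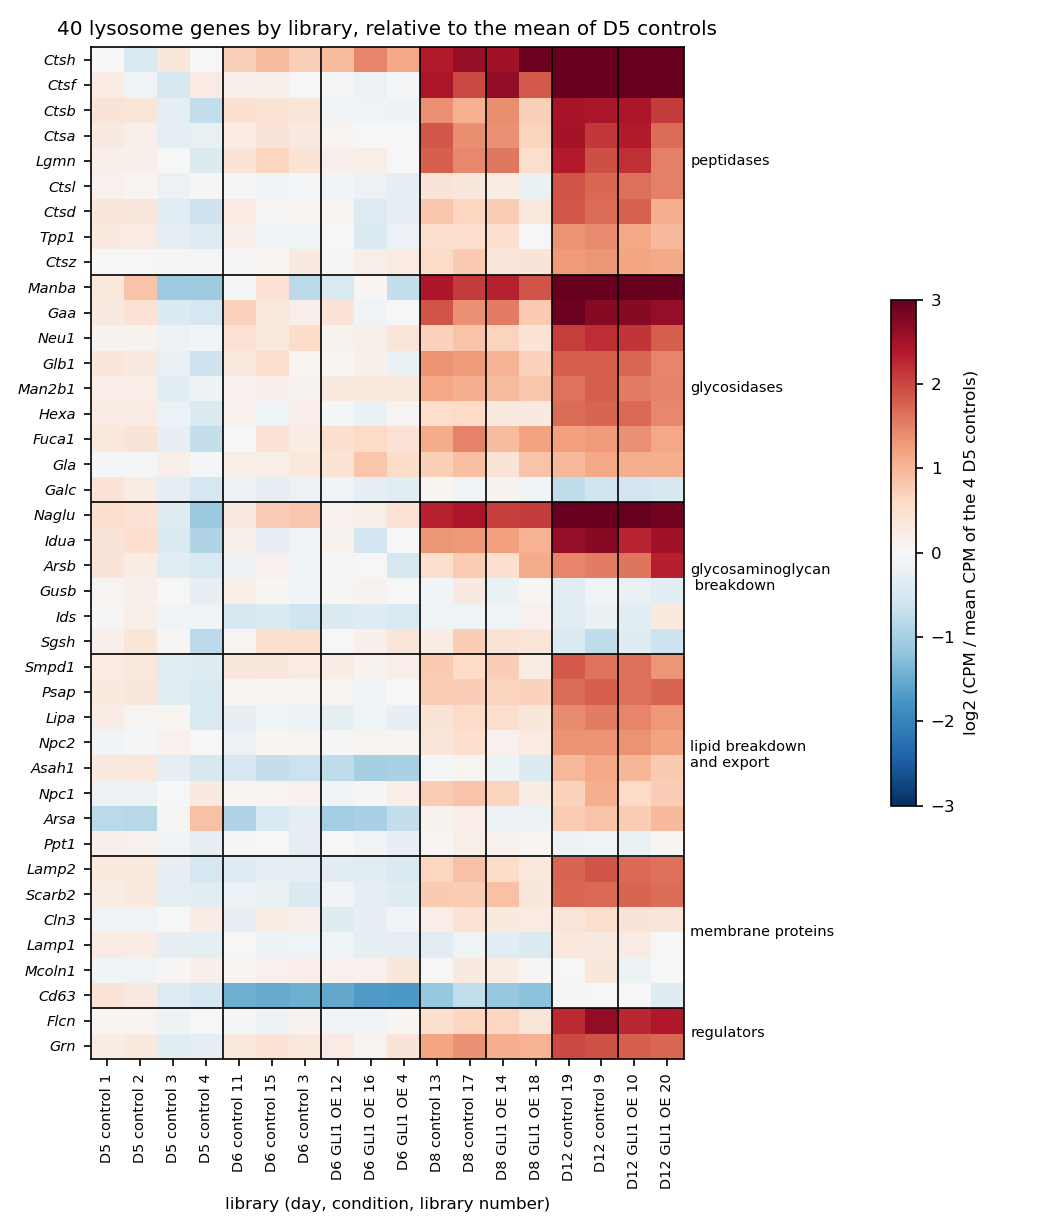
Each of the 40 lysosome genes (vertical axis, grouped by role) in each of the 18 libraries (horizontal axis, by day and condition). Colour is the log2 ratio of CPM to the mean of the 4 D5 controls, cut off at the ends of the scale. The D8 and D12 columns are mostly red, while Galc, Gusb, Ids, Sgsh, Ppt1, Cln3, Lamp1, Mcoln1 and Cd63 stay pale or blue at D12.

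Promoter sequences show how the CACGTG core is spread among these genes. RefSeq start sites (assembly GRCm38.p6), each with 250 bases before and 50 after the start, were matched by symbol for 36 of the 40 genes, which have 40 promoters. The core CACGTG, which reads the same on both strands, stood in a promoter of 14 of the 36 genes (38.9%). By promoter it was in 35.0% of the 40, in 7.15% of all 32851 promoters and in 9.66% of the promoters of tested genes. The longer form GTCACGTG or its reverse complement CACGTGAC, which contains the core, was in 27.5% of the 40 promoters, in 2.25% of all promoters and in 3.95% of the promoters of tested genes. Many lysosomal genes are known targets of factors that bind this core, so a higher share in this list could be foreseen. The 8 windows follow on the gene's strand, 5′ to 3′, with CACGTG in capitals and position -1 as the base before the start: those of 4 strongly rising genes, then Cln3, which rose little, and then 3 genes that did not pass from D5 to D12.
Naglu, chr11:101070004-101070043, plus strand, bases -90 to -51: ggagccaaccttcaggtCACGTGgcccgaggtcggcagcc
Ctsf, chr19:4855069-4855108, plus strand, bases -96 to -57: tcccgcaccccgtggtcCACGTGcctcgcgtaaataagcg
Gaa, chr11:119267806-119267845, plus strand, bases -157 to -118: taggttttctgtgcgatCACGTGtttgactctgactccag
Ctsa, chr2:164833744-164833772, plus strand, bases -29 to -1: aacaatgagcaaactgtCACGTGatgcag
Cln3, chr7:126583335-126583402, minus strand, bases -166 to -99: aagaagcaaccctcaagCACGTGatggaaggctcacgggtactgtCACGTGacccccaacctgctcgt
Lamp1, chr8:13159083-13159160, plus strand, bases -78 to -1: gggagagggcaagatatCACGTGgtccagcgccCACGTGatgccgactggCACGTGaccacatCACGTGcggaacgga
Mcoln1, chr8:3500431-3500496, plus strand, bases -88 to -23: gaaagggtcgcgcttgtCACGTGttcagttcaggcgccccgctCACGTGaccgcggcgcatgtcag
Sgsh, chr11:119355517-119355556, minus strand, bases -46 to -7: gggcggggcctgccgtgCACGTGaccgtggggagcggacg

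These matches are descriptions of the letters in the window and not of binding. The windows shown stop at base -1, and Ctsa has a further core at base 6, after the start. Of the rising genes not shown, Ctsd has cores at bases -245 and -98 and Gla at bases -227 and -194. Ctsl has a core at base -236, Glb1 at base -48 and Lgmn at base -49. Arsa, which did not pass from D5 to D12 and is not shown, has a core at base -16. The windows are therefore no sample of how cores and rises go together. The 4 rising genes shown encode the glycosaminoglycan enzyme NAGLU, the peptidases cathepsin F and cathepsin A, and the glycogen-degrading alpha-glucosidase GAA. Lamp1, for an abundant lysosomal membrane glycoprotein, has 4 cores within 78 bases, more than any other window shown. Lamp1 nevertheless differed by 0.29 ± 0.15 (log2 fold change ± SE) between D5 and D12 and did not pass (edgeR adjusted p = 0.0896). The cation channel gene Mcoln1 has 2 cores and a value of 0.19 ± 0.12 (edgeR adjusted p = 0.19), and the heparan sulfatase gene Sgsh has 1 core and a value of -0.58 ± 0.26 (0.066). Of the 14 genes with a core 10 rose, with a median log2 fold change of 1.79 over the 14. Of the 22 matched genes without one 17 rose and 1 fell, with a median of 1.60. Manba, the gene with the largest rise, has no CACGTG in its window.

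The D5 starting level differed widely between the genes. On the scale that corrects for gene length as well as depth, the TPM values that the authors deposited for D5, the highest of the 40 was Lamp1 at 461 ± 94.5 (SD, n = 4) and the lowest Manba, for the lysosomal beta-mannosidase, at 2.02 ± 1.29. Lamp1 was followed by Ctsl at 413 ± 39.1, Cd63 at 399 ± 126 and Ctsd at 381 ± 125, whose values overlapped. Ctsl and Ctsd encode the cathepsins L and D, and Cd63 a tetraspanin of late endosomes. In the other roles the highest were Psap, the precursor of the sphingolipid activator proteins, at 259 ± 74.6, Hexa, an enzyme subunit for ganglioside breakdown, at 105 ± 24.1, Gusb, the beta-glucuronidase, at 66.5 ± 8.03, and the progranulin gene Grn at 65.0 ± 15.2.

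The large SDs at D5 follow in part the difference of D5 libraries 1 and 2 from libraries 3 and 4. For 31 of the 40 genes (77.5%) libraries 1 and 2 both lay above libraries 3 and 4, and for 6 (15%) both lay below, against 30.4% and 30.3% of all genes tested. The median log2 ratio of the first pair over the second was 0.53 for the 40 genes and -0.01 for all genes. The ratio was 1.68 for Manba, 1.16 for Naglu and 1.09 for the iduronidase gene Idua. The arylsulfatase gene Arsa went the other way, with 33.5 and 32.97 CPM in libraries 1 and 2 and 60.2 and 109 CPM in libraries 3 and 4. Several lists of cell markers also differed between libraries 1 and 2 and libraries 3 and 4. Cardiomyocyte markers summed to 5867 and 5607 CPM in libraries 1 and 2 and to 2183 and 3148 CPM in libraries 3 and 4, while embryonic red cell markers summed to 0.319 and 1.25 CPM in the first pair and to 220 and 20.7 CPM in the second. Fibroblast and smooth muscle markers summed to 5296 and 5817 CPM in the first pair and to 2351 and 1298 CPM in the second. Early cardiac progenitor markers (487 and 404 against 890 and 949 CPM) and endothelial markers (95.6 and 80.3 against 348 and 149 CPM) were lower in the first pair. Their part in the lysosome gene levels was not tested.

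The 9 peptidase genes all rose between D5 and D12 in controls, by 1.31 to 3.38 on the log2 scale, with a median of 2.18. The largest rise was that of Ctsh, for the aminopeptidase cathepsin H, which was at 2.39, 1.73, 2.98 and 2.36 CPM in the 4 D5 libraries and at 25.5 and 23.9 CPM at D12. The groups did not overlap (log2 fold change 3.38 ± 0.21, edgeR adjusted p = 1.25e-08). Ctsf, for cathepsin F, went from 6.22 to 10.3 CPM at D5 to 101 and 75.7 CPM at D12 (3.35 ± 0.23, edgeR adjusted p = 2.43e-08). Among the abundant members, Ctsl was at 408, 387, 330 and 359 CPM at D5 and at 1364 and 1218 CPM at D12 (1.80 ± 0.11, edgeR adjusted p = 1.23e-08). The smallest rise of the 9 was that of Ctsz, for the carboxypeptidase cathepsin Z (1.31 ± 0.09).

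Of the 9 glycosidase genes 8 rose and 1 fell. Manba was at 4.19, 6.01, 1.57 and 1.60 CPM at D5 and at 37.6 and 58.9 CPM at D12, which rest on 38 to 149 reads per D5 library and 709 and 1165 reads at D12. That difference was the largest among the 40 genes (3.85 ± 0.46, 14.4-fold, edgeR adjusted p = 5.38e-06). Gaa was at 101, 113, 63.3 and 58.6 CPM at D5 and at 642 and 556 CPM at D12 (2.83 ± 0.27, 7.13-fold, edgeR adjusted p = 7.07e-07). Galc, for the galactocerebrosidase of myelin lipid turnover, was the member that fell, from 56.3, 49.3, 34.7 and 30.0 CPM to 25.1 and 28.1 CPM (-0.68 ± 0.20, edgeR adjusted p = 0.00833). The groups did not overlap, but the edgeR call was lost without D12 control library 19 (adjusted p = 0.0653) and when only these groups were fitted (0.0735).

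The 6 glycosaminoglycan enzyme genes split evenly, with 3 that rose and 3 that did not pass. Naglu was at 10.1, 9.59, 5.51 and 3.29 CPM at D5 and at 72.0 and 79.2 CPM at D12 (3.41 ± 0.31, edgeR adjusted p = 4.5e-07). Idua rose by 2.69 ± 0.29 and the arylsulfatase B gene Arsb by 1.49 ± 0.26. The 3 others had estimates below 0, at -0.58 for Sgsh, -0.26 for the iduronate sulfatase gene Ids and -0.22 for Gusb. Thus Naglu and Sgsh, whose products act on the same heparan sulfate chains, differed in direction of estimate.

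Of the 8 genes for lipid breakdown and export 6 rose, with Smpd1, for acid sphingomyelinase, highest at 1.74 ± 0.19 (edgeR adjusted p = 2.07e-06). Psap, the most abundant at D5, was at 378, 391.8, 244 and 226 CPM and reached 993 and 1071 CPM at D12 (1.74 ± 0.17, edgeR adjusted p = 9.25e-07). Npc1 and Npc2, which hand cholesterol out of the lysosome, rose by 0.90 ± 0.15 and 1.35 ± 0.09. Arsa (0.80 ± 0.36) and the palmitoyl thioesterase gene Ppt1 (-0.14 ± 0.13) did not pass.

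Of the 6 membrane protein genes 3 rose, and Lamp1, Mcoln1 and Cd63 did not pass. Lamp2 was at 278, 274, 189 and 160 CPM at D5 and at 753 and 838 CPM at D12 (1.82 ± 0.17, edgeR adjusted p = 5.79e-07). Scarb2, the receptor that carries glucocerebrosidase to the lysosome, rose by 1.72 ± 0.17. Cln3, the Batten disease gene, rose by 0.46 ± 0.15 (edgeR adjusted p = 0.0159) and did not pass without D12 control library 9 (adjusted p = 0.112) and without D5 libraries 1 and 2 (0.124). Lamp1 was at 561, 548, 396 and 386 CPM at D5 and at 593 and 567 CPM at D12, so the 2 D12 libraries lay only just above the highest D5 library. Lamp1 and its close relative Lamp2 thus stood at 473 and 226 CPM on average at D5 and at 580 and 795 CPM at D12.

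Both regulators rose. Grn rose by 1.94 ± 0.15 (edgeR adjusted p = 8.66e-08). Flcn, the folliculin gene, whose product lets mTORC1 hold TFEB and TFE3 in the cytoplasm, was at 49.6, 50.5, 43.2 and 48.5 CPM at D5 and at 228 and 302 CPM at D12 (2.46 ± 0.12, edgeR adjusted p = 1.15e-09), the smallest adjusted p of the 40 genes.

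**Figure D2:**
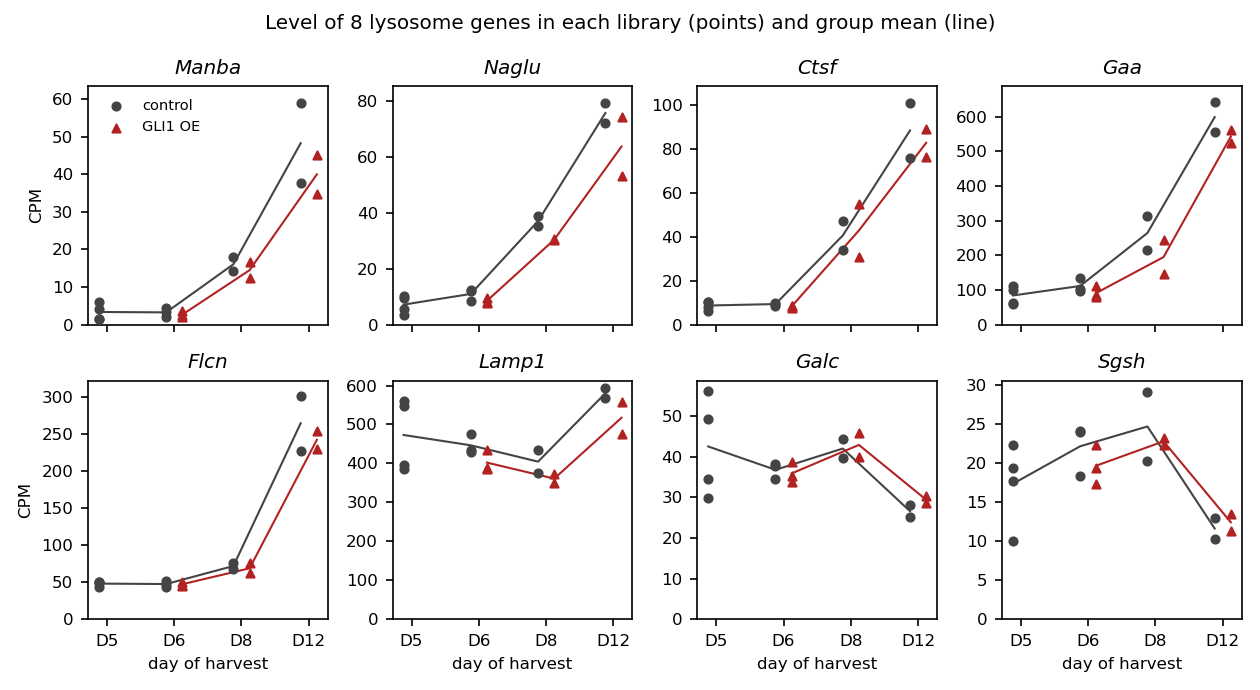
CPM (vertical axis, from 0) of 8 lysosome genes by day of harvest (horizontal axis, days evenly spaced), with controls as grey circles, GLI1 OE libraries as red triangles and group means joined by lines. Manba, Naglu, Ctsf, Gaa and Flcn are highest at D12 in both arms, Lamp1 lies between 349 and 593 CPM, and Galc and Sgsh are lowest at D12.

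The members moved at different steps. From D5 to D6 only 5 of the 40 genes passed, 2 higher and 3 lower, against 8.39% and 9.99% of all genes tested. In 5 genes the D6 libraries all lay above those of D5 and in 2 all lay below, while 29% of all genes had no overlap in either direction. Cd63 fell most, from 215, 196, 123 and 115 CPM to 58.6, 56.8 and 59.2 CPM (-1.48 ± 0.20, edgeR adjusted p = 0.000127). It rose again from D6 to D12 (1.48 ± 0.22, edgeR adjusted p = 7.19e-05), and its D12 value did not differ detectably from D5 (-0.00 ± 0.22). Ctsh (0.78 ± 0.20, edgeR adjusted p = 0.0142) and the sialidase gene Neu1 (0.44 ± 0.12, 0.0178) rose at this step, and the acid ceramidase gene Asah1 (-0.61 ± 0.17, 0.0238) and Ids (-0.49 ± 0.13, 0.0174) fell. Calls at this step depended on which D5 libraries were used, and a difference in how the D5 libraries were made cannot be told apart from this step. Without libraries 1 and 2, 12 genes passed (10 higher, 2 lower), and without libraries 3 and 4, 10 passed (1 higher, 9 lower), with Cd63 lower in both. The count was 2 without D6 control library 3 and 3 without D6 control library 15. Asah1 was lost without D5 library 1 or 2 or D6 control library 3 or 15 (adjusted p up to 0.108), Neu1 and Ids without D6 control library 3 (0.0851 and 0.0793) and Ctsh without D6 control library 15 (0.0638). Without D5 libraries 1 and 2 Ctsh (edgeR adjusted p = 0.087), Ids (0.113) and Asah1 (0.214) did not pass, and without libraries 3 and 4 Neu1 did not (0.104).

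From D6 to D8, 25 of the 40 genes rose and 0 fell, against 17.3% and 17.5% of all genes, with a median log2 fold change of 0.65. Manba rose by 2.31 ± 0.49, Ctsf by 2.12 ± 0.24, Naglu by 1.76 ± 0.33 and Ctsh by 1.72 ± 0.23 at this step. For 35 genes the 2 D8 controls both lay above the 3 D6 controls, as did 32% of all genes, and 64.1% of all genes had no overlap in either direction. From D8 to D12, 26 genes rose and 2 fell (Sgsh and Galc), against 16.9% and 19.4% of all genes, with a median of 0.87. The 28 edgeR calls became 17, all higher, without D8 control library 17. Galc (-0.66 ± 0.23, edgeR adjusted p = 0.0342) was lost without any 1 of the 4 libraries (up to 0.156), and Sgsh (-1.09 ± 0.30, 0.0116) without D8 control library 17 (0.125) or D12 control library 9 (0.105). The largest rise here was that of Flcn, at 46.8, 43.3 and 52.0 CPM at D6, 68.1 and 75.4 CPM at D8 and 228 and 302 CPM at D12 (1.88 ± 0.15 over the D8 to D12 step, edgeR adjusted p = 7.02e-06). Ctsl (1.44 ± 0.14) and Neu1 (1.36 ± 0.15) also gained most of their rise after D8, with 0.43 ± 0.12 and 0.34 ± 0.14 from D6 to D8. Fuca1, for the alpha-fucosidase, had 1.08 ± 0.25 from D6 to D8 and -0.06 ± 0.27 after it. These steps share the D8 controls, so their values are not independent.

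Markers of other cell types also changed over these days. The 12 macrophage and leukocyte markers, cells known for strong lysosomal expression, summed to 1.08 to 3.503 CPM at D5, 3.05 and 3.85 CPM in D8 controls and 13.3 and 18.8 CPM in D12 controls, where 6 of the 12 averaged under 1 CPM. C1qa had 0 reads in every control library before D12 and 3 and 6 reads in the D12 controls, and Ctss, a macrophage cathepsin gene, had 0 reads in each D5 library and 19 and 11 at D12. The 12 fibroblast and smooth muscle markers summed to 1298 to 5817 CPM at D5, 3763 and 6712 CPM at D8 and 16060 and 16360 CPM at D12. Cardiomyocyte markers summed to 2183 to 5867 CPM at D5 and 5533 and 13440 CPM at D12, endothelial markers to 80.3 to 348 and to 570 and 751 CPM, and endoderm markers to 12.2 to 19.7 and to 84.9 and 91.5 CPM. The part of these cell types in the rise of the lysosome genes was not tested.

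In the pulsed cells most of the 40 genes also rose from D6 to D12. From D6 to D12, 34 of the 40 genes rose and 1 fell in controls (29.8% and 30.5% of all genes, 60.3% in all), and 34 rose and 2 fell in GLI1 OE cells (30.6% and 30.2%, 60.7% in all). These comparisons share no library, but at D6 adjacent control and GLI1 OE libraries deviated together (r = 0.617, 0.445 and 0.520). The arms may therefore not be independent. In both arms 33 genes rose and 1, Sgsh, fell, and the sign of the estimate was shared by 38. Across the 40 genes the log2 changes of the arms correlated with r = 0.978, and across all genes tested with r = 0.831, as a description over genes, which are not independent. The median change was 1.60 in controls and 1.61 in GLI1 OE cells. Sgsh was at 18.3, 24.0 and 24.1 CPM in D6 controls, 13.0 and 10.2 in D12 controls, 17.3, 19.4 and 22.2 in D6 GLI1 OE cells and 13.5 and 11.3 in D12 GLI1 OE cells. In controls the change was -0.93 ± 0.28 (edgeR adjusted p = 0.0101), which did not hold without D12 control library 9 (0.104). In GLI1 OE cells it was -0.67 ± 0.28 (edgeR adjusted p = 0.0493), a call lost whichever library was left out, with adjusted p up to 0.259. Gusb passed only in the GLI1 OE arm (-0.33 ± 0.13, edgeR adjusted p = 0.0471), also lost whichever library was left out (up to 0.274). The difference between the arms, tested as an interaction, passed for 0 of the 40 genes in edgeR (0.604% of all genes, 0.094% higher and 0.51% lower), with 0 at an unadjusted p under 0.05. It was widest for Arsb at 0.64 ± 0.40 (edgeR adjusted p = 0.732). Standard errors of these differences ran from 0.133 to 0.684, so differences between the arms are not excluded.

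**Figure D3:**
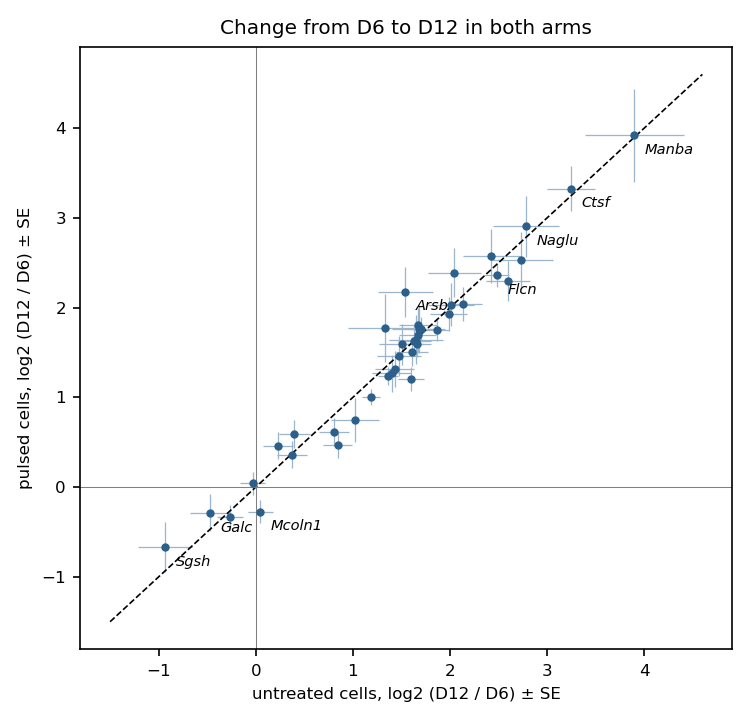
Log2 fold change from D6 to D12 in untreated cells (horizontal axis) and pulsed cells (vertical axis) for the 40 lysosome genes, each with its standard error. The dashed line marks equal change. The points lie along it from Sgsh, lower in both arms, to Manba, and Arsb is farthest from it.

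The direct comparison of pulsed with untreated cells called 0 of the 40 genes at D6, where 4.14% of all genes were called in edgeR, 3.02% higher and 1.12% lower. One gene had an unadjusted p under 0.05, and DESeq2 and limma-voom also called 0. Estimates were below 0 for 30 of the 40 genes, with a median of -0.11 against -0.02 for all genes. Cardiomyocyte markers summed to 12410, 8327 and 5528 CPM in the D6 controls 11, 15 and 3 and to 5471, 1955 and 1895 CPM in the GLI1 OE libraries 12, 16 and 4, and their part in these estimates was not tested. The 3 GLI1 OE libraries all lay below the 3 controls in 7 genes and above them in 4, and 27% of all genes had no overlap in either direction. The smallest p was that of Gla, for alpha-galactosidase, which was at 12.8, 12.9 and 14.1 CPM in controls and 15.1, 20.2 and 16.5 CPM in GLI1 OE cells (0.38 ± 0.14, edgeR adjusted p = 0.171). Ctsb, for cathepsin B, was at 200, 194 and 187 CPM in controls and at 138, 136 and 131 CPM in GLI1 OE cells (-0.52 ± 0.25, edgeR adjusted p = 0.33). Its 2 groups lay well apart, and edgeR called it lower when the D6 groups were fitted alone (adjusted p = 0.00358). Ctsh was at 3.86, 4.49 and 3.87 CPM in controls and at 4.56, 6.57 and 5.33 CPM in GLI1 OE cells (0.43 ± 0.21, edgeR adjusted p = 0.341). The authors' deposited D6 table, made with DESeq2, gives Ctsb a log2 fold change of -0.51 with an adjusted p of 4.77e-09. The authors' deposited table, from DESeq2, holds 2 more of the 40 genes under 0.05, both lower, Ctsa (-0.26, adjusted p = 0.042) and the asparaginyl endopeptidase gene Lgmn (-0.36, 0.0207).

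At D8 and D12 the pulse comparison again called 0 of the 40 genes in edgeR (0% of all genes at each day), DESeq2 and limma-voom. At D8, 4 of the 40 had an unadjusted p under 0.05, all lower, and 35 estimates were below 0, with a median of -0.19. In 19 of the 40 genes both GLI1 OE libraries lay below both controls and in 1 both lay above, against 15.2% and 17% of all genes. The 2 GLI1 OE libraries differed: the 40 genes summed to 5443 CPM in library 14 and 4511 CPM in library 18, with 5889 and 5824 CPM in the controls 13 and 17. Library 18 is also the one whose cardiomyocyte markers summed to 1543 CPM, against 14880 in library 14 and 17160 and 7767 in the controls, and the part of this difference in the lysosome genes was not tested. Ctsa was at 277 and 199 CPM in controls and at 195 and 121 CPM in libraries 14 and 18 (-0.59 ± 0.26, edgeR adjusted p = 0.818). Ctsz (-0.31 ± 0.10, edgeR adjusted p = 0.724) and Ctsl (-0.33 ± 0.14, 0.799) had the smallest p. At D12, 0 genes had an unadjusted p under 0.05, with 31 estimates below 0 and a median of -0.15. Both GLI1 OE libraries lay below both controls in 10 genes and above in 2, against 16.4% and 17.9% of all genes. Arsb was at 19.7 and 20.8 CPM in controls and at 21.9 and 36.3 CPM in GLI1 OE cells (0.52 ± 0.31, edgeR adjusted p = 0.916), the high value being that of library 20. Mcoln1 (-0.27 ± 0.14, edgeR adjusted p = 0.905) and Ids (0.29 ± 0.17, 0.917) completed the 3 smallest p at D12. The authors' deposited D8 and D12 tables give the 40 genes no adjusted p below 1. Standard errors of the 40 genes ran from 0.0844 to 0.470 on the log2 scale at D6, from 0.103 to 0.530 at D8 and from 0.103 to 0.523 at D12. Differences of that size were not detectable. Larger ones could also go uncalled, as with Ctsz at D8 (-0.31 ± 0.10), so these results do not exclude them. No difference between the D8 and D6 effects passed in edgeR among the 40 genes (0.631% of all genes, 0.0672% higher and 0.564% lower), and 3 had an unadjusted p under 0.05. Counts at an unadjusted p under 0.05 and counts of estimates below 0 are given without the share over all genes. They are therefore not read as particular to the lysosome genes.

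**Figure D4:**
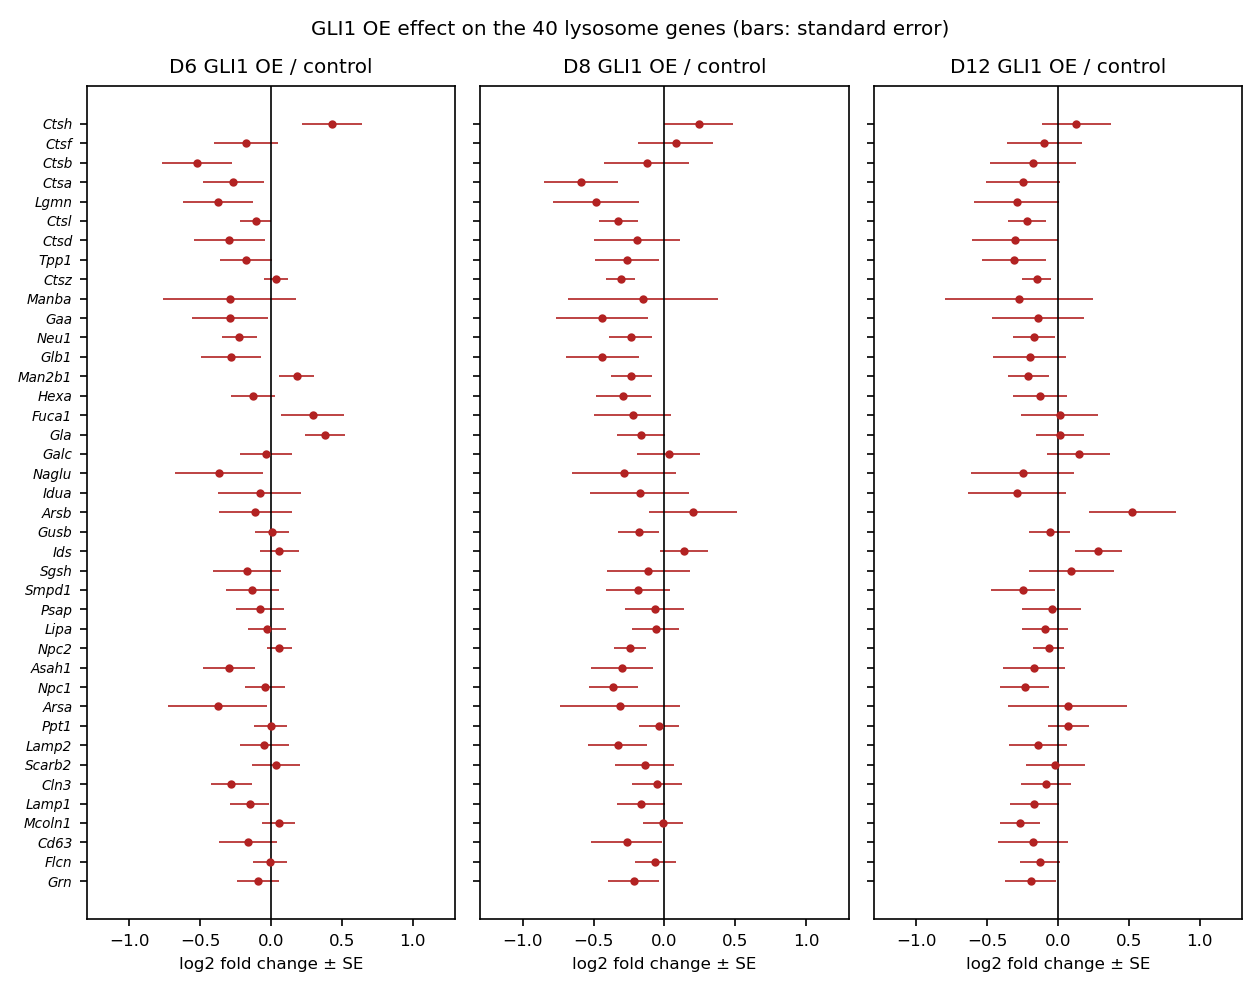
Log2 fold change of GLI1 OE over control at D6, D8 and D12 (horizontal axes) for each of the 40 lysosome genes, with bars for 1 standard error. The estimates lie between -0.59 and 0.52, more of them below 0 than above at each day, and 0 of the 40 passed at any of the 3 days.

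Tfeb, the gene of the transcription factor itself, passed under the pulse at D6, where 0 of the 40 lysosome genes did. In controls it was at 3.31, 2.82, 3.69 and 2.58 CPM at D5, 8.05, 8.92 and 9.56 at D6, 15.97 and 15.65 at D8 and 25.0 and 22.4 at D12. The days did not overlap, and Tfeb rose by 2.93 ± 0.25 from D5 to D12 (edgeR adjusted p = 2.38e-07) and by 1.51 ± 0.23 from D5 to D6 (0.000443). At D6 the GLI1 OE libraries were at 2.47, 2.17 and 2.77 CPM, below every D6 control. Of these, 2.77 CPM lay within the range of D5 and the others below it. Tfeb thus fell by 1.84 ± 0.26 under the pulse (edgeR adjusted p = 0.000771), and the call held in all 12 alternatives, with adjusted p up to 0.00753. The authors' deposited D6 table gives -1.83. At D8 Tfeb was at 13.4 and 5.81 CPM in GLI1 OE libraries 14 and 18 (-0.72 ± 0.30, edgeR adjusted p = 0.799). Without library 14 the value was -1.46, which rests on library 18 alone in that group. Cardiomyocyte markers summed to 1543 CPM in library 18, against 17160 and 7767 CPM in the D8 controls. Their part in this value was not tested. At D12 Tfeb was at 21.0 and 15.3 CPM (-0.39 ± 0.30, edgeR adjusted p = 0.962). The effect at D12 minus that at D6 was 1.45 ± 0.39 and did not pass (edgeR adjusted p = 0.166), though DESeq2 gave 0.0363 and the fit of these groups alone 0.0315. Among its relatives, Tfe3 was at 64.2, 69.9 and 70.0 CPM in D6 controls and 75.3, 71.8 and 78.4 CPM in GLI1 OE cells, and Mitf at 9.86, 16.5 and 10.4 and at 3.61, 1.67 and 3.10 CPM. The groups did not overlap for either gene, and neither passed (edgeR adjusted p = 0.501 for Tfe3 and 0.0654 for Mitf, whose log2 fold change was -2.13 ± 0.60). Both rose in controls from D5 to D12, Tfe3 by 0.48 ± 0.09 (edgeR adjusted p = 0.000435) and Mitf by 1.84 ± 0.57 (0.0106), the latter lost without D12 control library 19 (0.117) or D5 libraries 3 and 4 (0.0801). Endoderm markers moved with the pulse as well, summing to 19.1 to 26.1 CPM in D6 controls and 126 to 155 CPM in D6 GLI1 OE cells. Cardiomyocyte markers were lower in every D6 GLI1 OE library than in any D6 control, at 1895 to 5471 against 5528 to 12410 CPM. The part of these cells in the Tfeb and Mitf levels was not tested.

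**Figure D5:**
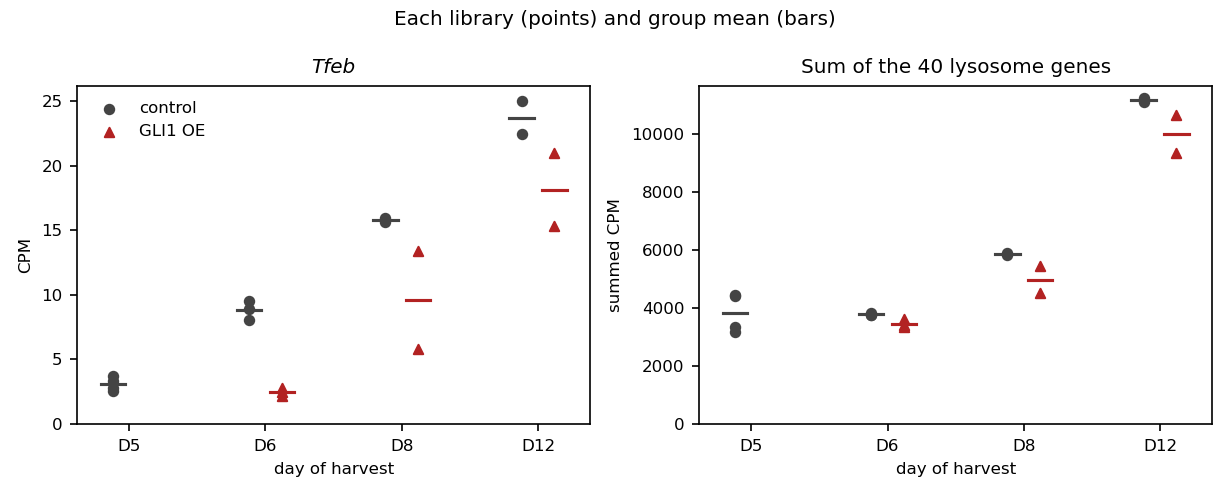
CPM of Tfeb (left) and summed CPM of the 40 lysosome genes (right) by day of harvest, with 1 point per library and bars for group means. Tfeb is at 2.17 to 2.77 CPM in the D6 GLI1 OE libraries and at 8.05 to 9.56 CPM in D6 controls, while the summed lysosome genes are at 3337 to 3610 and 3743 to 3843 CPM.

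Other genes of the lysosome were read from 7 lists that hold none of the 40. Among 28 further luminal proteins 21 rose and 0 fell from D5 to D12 in controls, with a median of 1.35, while 32.2% of all genes were higher and 34.3% lower. They include the lysosomal phospholipase gene Pla2g15 (2.38 ± 0.14, edgeR adjusted p = 9.02e-09). Among 20 further membrane proteins 14 rose and 2 fell, with a median of 0.76, led by the sialic acid exporter gene Slc17a5 (2.01 ± 0.12) and Sidt2 (1.58 ± 0.14). Of 18 proton pump genes 8 rose and 4 fell, with a median of 0.21, but 5 rose and 7 fell without D5 libraries 3 and 4, and 5 rose and 3 fell without D12 control library 9. Tcirg1, an alternative subunit known from osteoclasts, rose by 3.396 ± 0.20 and Atp6v0b by 1.28 ± 0.12.

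The sorting and control lists had calls in both directions, with shares near those of all genes for the control list and for the sorting genes that rose. Of 13 genes for mannose-6-phosphate sorting 4 rose and 2 fell, with the adaptor gene Gga1 at 0.67 ± 0.09 and the receptor gene M6pr at -0.79 ± 0.12. Of 20 genes for the TFEB family and for mTORC1 recruitment 7 rose and 7 fell, among them Tfeb (2.93 ± 0.25) and Hbxip, also named Lamtor5, for a subunit of the Ragulator complex (-1.43 ± 0.13). Of 18 tethering and fusion genes 9 rose and 5 fell (6 and 6 without D5 libraries 3 and 4), among them the syntaxin gene Stx7 (1.15 ± 0.10) and Bloc1s2 (-2.22 ± 0.16). Of 20 autophagy genes 14 rose and 3 fell, including Gabarapl1, for a membrane-bound conjugate of the autophagosome (2.67 ± 0.13), and the cargo receptor gene Nbr1 (1.40 ± 0.10). Medians were 0.07 for sorting, 0.03 for control, 0.27 for tethering and 0.63 for autophagy, beside -0.04 for all genes. M6pr, Hbxip and Bloc1s2 averaged 196, 31.6 and 33.5 CPM at D5. In later controls they averaged 135, 14.7 and 9.18 CPM at D6 and 114, 11.7 and 7.2 CPM at D12. Most of each fall lay from D5 to D6, which cannot be told apart from how the D5 libraries were made.

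Under the pulse at D6, 5 of the 137 tested genes of these lists rose and 1, Tfeb, fell, counts near the 3.02% higher and 1.12% lower of all genes. Slc36a1, for a proton-coupled amino acid exporter of the lysosome, was at 18.6, 22.5 and 20.4 CPM in controls and at 58.3, 96.9 and 69.1 CPM in GLI1 OE cells (1.87 ± 0.18, edgeR adjusted p = 4.1e-05), and the call held in every alternative tried. It was back at 27.8 and 24.6 CPM at D8, beside 28.2 and 27.2 in controls. The others were Ctsc, for the dipeptidyl peptidase cathepsin C (0.75 ± 0.19, edgeR adjusted p = 0.0418), Slc17a5 (0.55 ± 0.12, 0.0165), Map1lc3b, for an autophagosome marker protein (0.39 ± 0.08, 0.0168), and the autophagy kinase gene Ulk1 (0.55 ± 0.13, 0.0317). Each of these 4 calls was lost when some single library was left out, Ctsc with any of the 6 (adjusted p up to 0.179) and the other 3 with 4 of the 6 (up to 0.094 for Slc17a5, 0.0935 for Map1lc3b and 0.17 for Ulk1). The proton pump, sorting and tethering lists had 0 calls at D6 in edgeR, and the smallest p of each was that of Atp6v0e2 (-0.83, adjusted p = 0.126), Gnptab (-0.39, 0.0732) and Rilp (-0.64, 0.501). Gnptab, for a subunit of the enzyme that makes the mannose-6-phosphate tag, was called lower in DESeq2, with the library pairs in the model and without D6 GLI1 OE library 4 (adjusted p down to 0.0342).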

How the data were processed

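RNA from 18 libraries was read as single-end 50-base polyA RNA-seq. Raw gene counts were deposited by the authors as 1 table per gene symbol, and for the aligner, counter, strand setting and genome build the record is: not given in the sources used here. The authors also deposited TPM values for D5. Their D6 comparison table holds log2 fold changes, p-values, a test score (stat) and the mean scaled count signal (baseMean) from DESeq2, per the file headers, and their D8 and D12 tables hold log2 fold changes and p-values from a tool the file headers do not name. Every column of counts was matched to a group, with 0 left over. The columns carry library numbers and not the replicate numbers of the labels.

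Counts were filtered (edgeR filterByExpr, minimum count 10), scaled by TMM and fitted with edgeR 4.0.16 (R 4.3.3; robust quasi-likelihood model of 7 groups, all 18 libraries together). P-values were adjusted by Benjamini-Hochberg over all 14892 genes within each comparison, and a gene was called at an adjusted p under 0.05. The standard error is the log2 fold change divided by the root of the F statistic. CPM values use the TMM-scaled library sizes. The model was tested on simulated data. Alternatives were DESeq2 1.42.0, limma-voom (limma 3.58.1), RLE size factors, no count filter, a fit of only the groups compared, a block for adjacent library numbers, and leaving out each library. A further one summed D5 libraries 1 and 2 into 1 library. Over all genes it gave 2218 calls from D5 to D6 in place of 2738, and 9672 from D5 to D12 in place of 9906. Leaving out a pair of D5 libraries and crossing the D12 pairs were added after the data were seen. Where leaving out a library left 1 in a group, that library was assumed to vary like the other groups.

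Adjacent library numbers deviated together at D6 (r = 0.617, 0.445 and 0.520 for the 3 pairs), so they may pair the libraries there, though no label states it. The correlation was 0.491 at D8 and -0.23 at D12. With 2 libraries a group, the other pairing must give the same size with the opposite sign. These values therefore do not settle the pairing at D8 and D12.

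The members and lists were chosen with earlier results of these data known. Of 145 symbols in the 7 other lists 144 were found, some under older names, and 137 tested. All 40 genes are accounted for by counts. Values are given for members called in a pulse comparison, for the largest rise and fall and the highest D5 TPM in each role, for the 3 smallest p of each pulse comparison, and for the 2 genes of each list with the smallest p from D5 to D12 and the 1 at D6. The result of 1 gene that this rule names is not reported here. Other genes named were chosen after their values were seen. Exons of 17 of the 40 genes overlap another annotated gene, 11 of them over at least 5% of their length (Arsa, Arsb, Cln3, Ctsa, Ctsb, Ctsd, Ctsl, Glb1, Hexa, Lamp1 and Sgsh), and their reads cannot be told from those of the overlapping gene where strand was not used.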

Additional observations from a re-analysis of the deposited data

Results flagged for a closer look

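Gla, for alpha-galactosidase, was at 12.6 CPM in D5 control library 3 and at 10.81, 10.92 and 10.97 CPM in libraries 1, 2 and 4. The gap of the high library is 0.91 of the range of the group, above Dixon's 95% critical value for 4 samples. It was the 1 such value among the 40 lysosome genes at D5, and chance gives about 1 in 20 groups.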

How the results depend on the processing

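The counts of called lysosome genes kept within 1.5 times under the other tools and scalings, with these exceptions, whose cause was not tested. From D5 to D6 the count of 5 became 3 when only these groups were fitted, 12 without D5 control libraries 1 and 2, and 10 without libraries 3 and 4. For GLI1 OE at D6 the count of 0 became 1 (Ctsb) when only these groups were fitted. Leaving out 1 library at a time gave 31 to 35 from D5 to D12, 32 to 34 from D6 to D12, 32 to 35 in GLI1 OE cells from D6 to D12, 17 to 22 from D8 to D12, 2 to 7 from D5 to D6, 17 to 23 from D6 to D8, and 0 in every pulse comparison and interaction. The estimate for Ids under GLI1 OE at D12 was 0.29, and leaving out libraries moved it between -0.0401 (without GLI1 OE library 20) and 0.56 (without GLI1 OE library 10). With a replicate block for adjacent library numbers, 0 of the 40 genes were called at D6, D8 and D12, so the block changed no call among them. Over all genes at D6 the block gave 667 calls in place of 616. Crossing the D12 pairs, chosen after the data were seen, also called 0. With 2 libraries a group at D8 and D12, small differences could not be detected.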
